A study of Homo sapiens with 6 samples.

Results

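The MYC/MAX/MXD network was followed here in SaOS-2 cells before and after induction of p21, through the rows of the deposited count table whose gene symbol was MYC, MYCN, MYCL1, MAX, MXD1, MXD3, MXD4, MXI1, MNT or MGA. All 10 symbols had a row among the 23228 gene names of the table, and 8 of them had enough reads to be tested. SaOS-2 is an osteosarcoma line without functional RB, and the cells carried a p21 vector under a doxycycline-inducible promoter. The p21 OFF group was untreated and the p21 ON group received 1 μg/ml doxycycline for 24 h, with 3 RNA sequencing libraries in each group and the same vector-carrying line in both. Doxycycline alone, in cells lacking the vector, was not analysed here, and drug and p21 cannot be told apart. The labels do not say whether replicates came from separate cultures, and p-values measure the spread between these libraries.

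MYC, MYCN and MYCL are basic helix-loop-helix leucine zipper transcription factors that bind E-boxes, with the core letters CACGTG, as heterodimers with MAX and that drive ribosome production, metabolism and proliferation. MAX is the shared partner. The MXD proteins (MXD1, MXI1, MXD3 and MXD4), MNT and MGA also pair with MAX, occupy the same kind of site and recruit corepressors, and are therefore described as antagonists of MYC. MXD1 and MXI1 are known mostly from differentiating and resting cells, whereas MXD3 is known as the MXD gene expressed in S phase of dividing cells.

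The libraries held 12795490 to 21975045 reads on genes. CDKN1A, which encodes p21, had 1257, 1187 and 1355 normalized counts without doxycycline (p21 OFF) and 40470.4, 43863 and 46739 with it (p21 ON), where reads of the vector and of the endogenous gene cannot be told apart (log2 fold change 5.11, limma adjusted p = 1.12e-19). The osteoblast transcripts ALPL, SPARC, SP7 and RUNX2 were abundant, whereas BGLAP was listed at 0 and COL1A2 and SPP1 had at most 4 reads in a library. Among markers of blood, endothelium and epithelium, PTPRC had at most 11 reads in a library, and CD68 and EPCAM were present at means of 820 and 330.2 in p21 OFF cells. Of 7 osteoblast markers tested, 1 was called lower (IBSP, -0.38), against 12.7% of all genes. Of 5 tested markers of other cell types 1 was called higher (VWF, 0.50, with a p21 OFF mean of 53.6), against 10.5% of all genes. Both calls were absent with DESeq2, with no filter on low values, without p21 ON replicate 1 and without p21 ON replicate 3. The IBSP call was also absent without p21 ON replicate 2 and with a trend on exon length taken out of each library. The VWF call was also absent without p21 OFF replicate 2 and without p21 OFF replicate 3. The part of these markers in the results was not tested. RB1 had a mean of 555 normalized counts in p21 OFF cells. p21 OFF replicate 1 stood apart from the other p21 OFF libraries, with a chi-square per gene of 8.50 and 9.26 against them, compared with 3.03 between the other two.

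Between p21 OFF and p21 ON cells, 4 of the 8 tested genes of the network were called changed, all of them among the 6 tested antagonists of MYC. MXD3 fell to 0.382 of its p21 OFF level, MNT rose 1.35-fold, MGA 1.21-fold and MXD4 1.18-fold. MXD3 and MNT were called in every fit run, whereas MGA and MXD4 lost their calls in some. With each library left out, the number called higher ranged from 1 to 3. MYC, MAX, MXD1 and MXI1 did not pass the test, an adjusted p-value under 0.05 from limma on log2(normalized count + 1) with adjustment over all 13255 genes with a mean of at least 10. Over all of these genes 10.5% were called higher and 12.7% lower, 23.2% together. edgeR on recovered reads (23.0% of all genes called, 10.6% higher and 12.4% lower) and DESeq2 (19.2% called, 8.43% higher and 10.7% lower) called 3 network genes higher and 1 lower as well. The median log2 fold change was 0.16 over the 8 genes and 0.0056 over all genes tested. For 4 network genes every p21 ON library exceeded every p21 OFF library, and for 2 the reverse held, while over all genes tested 19.1% and 21.3% were separated in these directions (40.4% together). When libraries were scaled by total reads alone, the share of higher calls among all calls went from 45.3% to 63.0%, the median of all genes moved to 0.05, and MXD1 was also called higher. In bulk RNA, fewer expressing cells and less RNA per cell cannot be told apart.

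**Figure D1:**
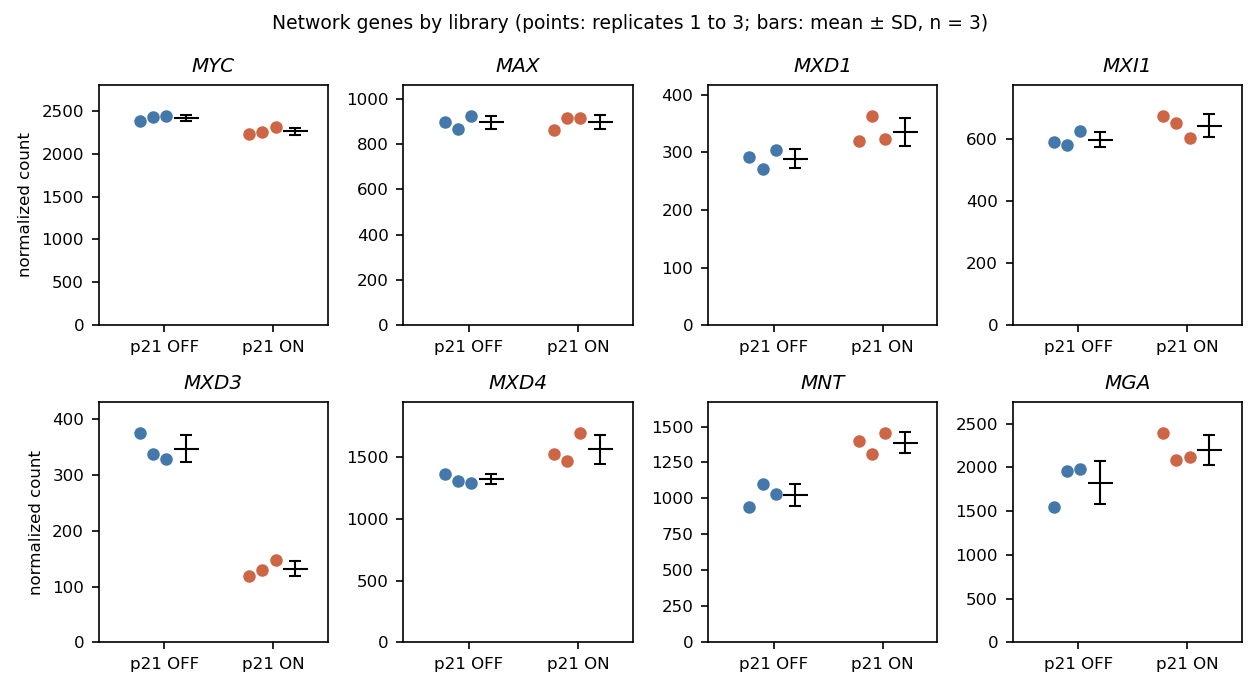
Normalized counts (vertical axes, from 0) of the 8 tested network genes in each p21 OFF (blue) and p21 ON (orange) library, with the mean ± SD of 3 libraries beside the points. MXD3 is 330 to 376 in p21 OFF and 120 to 147 in p21 ON libraries, whereas the MAX points of both groups overlap.

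MXD3 showed the largest change of the network. Its normalized counts were 376, 338 and 330 in p21 OFF cells and 119.9, 130.4 and 147 in p21 ON cells. The groups were far apart, with the p21 ON libraries lower. The means were 348 ± 24.4 and 132.5 ± 13.8 (SD, n = 3 each), or a log2 difference of -1.39 (SE 0.10, 95% interval -1.61 to -1.17, limma adjusted p = 1.21e-08), with 299 to 446 reads behind each p21 OFF value and 103 to 155 behind each p21 ON value. Among the 13255 genes tested, 48 had a log2 fold change this low or lower, MXD3 included. Omitting any 1 library gave values from -1.47 to -1.32, and the gene was called each time.

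MXD3 lies on chromosome 5 of GRCh37 (the build of hg19) from 176728462 to 176739758 on the minus strand, and in GENCODE its exons share 926 bases with RAB24 on the same strand and 1148 bases with PRELID1 on the opposite strand. RAB24, a RAB family GTPase gene, differed by a log2 fold change of -0.19 (limma adjusted p = 0.198), with overlapping groups. PRELID1, which encodes a mitochondrial lipid transfer protein, fell from 1181 ± 95.3 to 919 ± 38.3 (SD, n = 3 each), by 0.36 on the log2 scale (limma adjusted p = 0.00166). Both changes were smaller than that of MXD3. The strand setting of the counting is not given in the sources used here.

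The promoters of MNT and MXD4 are shown as examples of called genes whose windows hold the E-box core, the site of the network itself. Each window runs from 250 bases before to 50 bases after the start of the GENCODE canonical transcript in the GRCh37 genome and is written 5′ to 3′ on the gene's strand, with matches in capitals. Searched on both strands were the E-box core CACGTG, the E2F core (TTCCCGC or TTCGCGC or TTGCCGC or TTGGCGC) and the CHR core (TTTGAA and TTCGAA), an element of promoters bound by MuvB complexes. The MNT window is chr17:2304305-2304604, minus strand, with 1 E-box at -193, counted from 0 at the first transcribed base. The MXD4 window is chr4:2263787-2264086, minus strand, with an E-box at -238 and an E2F match at -86.
MNT: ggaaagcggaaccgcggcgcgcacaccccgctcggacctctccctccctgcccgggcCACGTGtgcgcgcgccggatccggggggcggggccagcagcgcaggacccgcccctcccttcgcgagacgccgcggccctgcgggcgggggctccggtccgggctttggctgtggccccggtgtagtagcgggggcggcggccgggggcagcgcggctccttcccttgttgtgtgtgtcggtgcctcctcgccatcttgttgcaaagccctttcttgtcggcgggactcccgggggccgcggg
MXD4: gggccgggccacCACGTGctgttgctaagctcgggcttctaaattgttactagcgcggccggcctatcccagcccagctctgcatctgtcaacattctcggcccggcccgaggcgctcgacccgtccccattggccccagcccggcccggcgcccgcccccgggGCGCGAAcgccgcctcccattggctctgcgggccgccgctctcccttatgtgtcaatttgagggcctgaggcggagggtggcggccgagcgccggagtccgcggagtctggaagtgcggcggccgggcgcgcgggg

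None of the matches in these windows overlapped another. Of 12542 promoters of tested genes read in the same way, 10.2% held the E-box core, 21.2% the E2F core and 10.6% the CHR core. The MAX window also held an E-box, at -51. The window of MGA, also called higher, held none, and neither did those of MXD1 and MXI1. The windows of some network genes, MXD3 and MYC among them, are not reported here, and nothing about sites in them can be read from these examples. Genes with the E-box core were called higher in 9.20% and lower in 11.9% of cases, against 10.8% and 13.3% of genes without it. Genes with the E2F core were called lower in 15% of cases, against 12.7% without it, and those with the CHR core in 26.7%, against 11.6%. A match is a description of letters and not evidence of a bound site.

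Among the rising antagonists, MNT showed the clearest change. MNT is a widely expressed MAX partner that recruits SIN3 corepressors. Its normalized counts were 943, 1099 and 1034 in p21 OFF cells and 1399, 1307 and 1454 in p21 ON cells. All p21 ON libraries lay above all p21 OFF libraries. The means were 1025 ± 78.3 and 1387 ± 74.0 (SD, n = 3 each), or a log2 difference of 0.44 (SE 0.07, 95% interval 0.29 to 0.59, limma adjusted p = 0.000283). Omitting any 1 library gave 0.38 to 0.49, again called each time. MNT lies on chromosome 17 from 2287367 to 2304398 and its exons share 1065 bases with an unnamed long non-coding RNA gene on the opposite strand.

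MXD4, a member of the MXD family with a SIN3-binding repressor domain, had 1366, 1308 and 1288 normalized counts in p21 OFF libraries and 1523, 1473 and 1695 in p21 ON libraries. The groups did not overlap, and p21 ON replicate 3 was the highest library. The means were 1321 ± 41.0 and 1564 ± 117 (SD, n = 3 each), or a log2 difference of 0.24 (SE 0.07, 95% interval 0.10 to 0.38, limma adjusted p = 0.0151). Without p21 ON replicate 3 the log2 fold change was 0.18 and MXD4 was not called (limma adjusted p = 0.0926). MXD4 lies on chromosome 4 from 2249159 to 2263836.

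MGA, a very large protein that pairs with MAX, carries a T-box domain and scaffolds a variant Polycomb complex (PRC1.6), had 1547, 1954 and 1979 normalized counts in p21 OFF libraries and 2391, 2082 and 2116 in p21 ON libraries. The groups did not overlap, but p21 OFF replicate 1 lay well below the other p21 OFF libraries. The means were 1827 ± 243 and 2197 ± 169 (SD, n = 3 each). On the log2 scale this was a change of 0.27 (SE 0.08, 95% interval 0.09 to 0.45, limma adjusted p = 0.0271), and the call was lost without p21 OFF replicate 1 (0.16, adjusted p = 0.0559), without p21 ON replicate 1 (0.21, adjusted p = 0.168) and without p21 ON replicate 3 (0.30, adjusted p = 0.0716).

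MGA, on chromosome 15 from 41913332 to 42065279, has 20.1 kb of annotated exon, the most of the network, and changes over all genes moved with exon length. The median log2 fold change was -0.11 for the 2423 tested genes with under 3 kb of exon and 0.10 for the 2111 genes with over 10 kb, and 20.1% of the long genes were called higher. p21 OFF replicate 1 lay 0.13 above the mean of the other p21 OFF libraries for the short genes (median, log2 scale) and differed from it by -0.12 for the long ones. With a trend on exon length taken out of each library, a fit added after seeing the data, MGA was at 0.16 and not called (limma adjusted p = 0.0742), while MXD3 (-1.38), MNT (0.39) and MXD4 (0.22) were still called. The part of length or of that library in the MGA change was not tested beyond these fits.

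MYC itself, the transcription factor at the centre of the network, had 2379.9, 2428 and 2441 normalized counts in p21 OFF libraries and 2226, 2250.5 and 2309 in p21 ON libraries. The p21 ON libraries were all lower, by a small margin. The means were 2416 ± 32.3 and 2262 ± 42.8 (SD, n = 3 each) and the log2 fold change of -0.10 did not pass the test (95% interval -0.22 to 0.02, limma adjusted p = 0.237). In an exact two-sided permutation test on its values p was 0.1, the smallest that 3 libraries against 3 allow. Under the settings tried over all libraries, with the length trend included, the log2 fold change of MYC lay between -0.11 and -0.05 and the gene was not called in any. MYC shares 194 exonic bases with CASC11 on the opposite strand.

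MAX had 897, 868 and 925 normalized counts in p21 OFF libraries and 865, 915 and 918 in p21 ON libraries. The groups overlapped. The change was 0.0042 (95% interval -0.13 to 0.14, limma adjusted p = 0.971), and the sign depended on the libraries used, so no direction is given. MAX lies on chromosome 14 from 65472892 to 65569413 and shares 822 exonic bases with FNTB on the opposite strand, which was at 32.0 to 42.6 normalized counts (group means).

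MXD1 and MXI1, the other MXD genes, gave smaller differences that missed the threshold. MXD1 had 293, 271 and 304 normalized counts in p21 OFF libraries and 319, 363 and 323 in p21 ON libraries. The groups did not overlap, and the change was 0.21 on the log2 scale (95% interval 0.02 to 0.40, limma adjusted p = 0.095), or 0.25 when libraries were scaled by total reads alone (adjusted p = 0.0479). MXD1 shares 237 exonic bases with SNRNP27 on the same strand, a spliceosome gene that fell by 0.31 on the log2 scale (limma adjusted p = 0.00943). MXD1 lies on chromosome 2 from 70124820 to 70170077 and MXI1 on chromosome 10 from 111967363 to 112047123. MXI1 had 588, 579 and 623 in p21 OFF and 673, 649 and 602 in p21 ON libraries. The groups overlapped, with a log2 fold change of 0.10 (95% interval -0.05 to 0.26, limma adjusted p = 0.326).

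The other MYC paralogs had few or no counted reads. MYCN, on chromosome 2 from 16080672 to 16087129, was listed at 0 in all 6 libraries. Since EIF4A1, a translation initiation helicase that every cell uses, is also listed at 0 throughout, a 0 in this table is not read as lack of the transcript. MYCL1, an older symbol of MYCL, on chromosome 1 from 40361100 to 40367928, had 6, 9 and 7 reads in p21 OFF libraries and 14, 7 and 13 in p21 ON libraries. As normalized counts these were 7.54, 7.03 and 5.17 against 16.3, 8.53 and 12.4, without overlap but with a mean of 9.49, under the minimum for testing. Fitted without that minimum, the gene differed by 0.79 on the log2 scale (SE 0.35, limma adjusted p = 0.136).

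**Figure D2:**
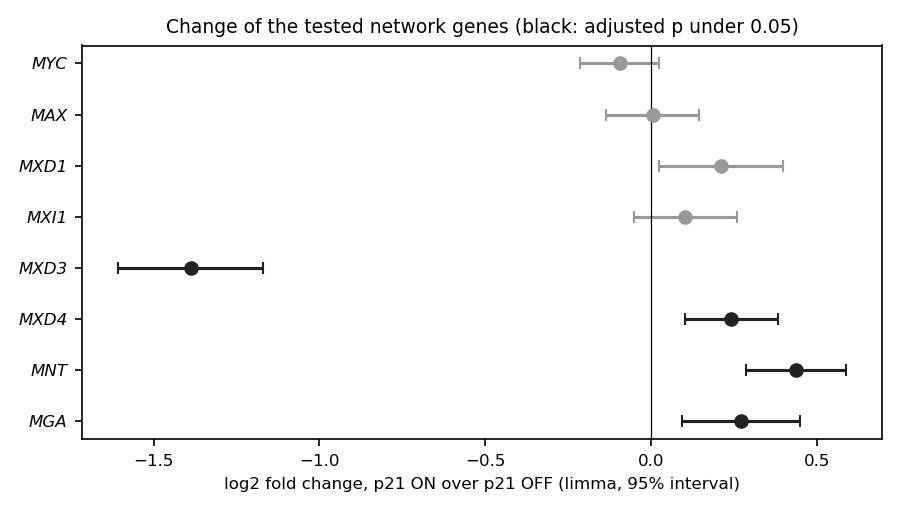
Log2 fold change of p21 ON over p21 OFF (horizontal axis) for the 8 tested network genes, with 95% intervals from limma and black marking an adjusted p under 0.05. MXD3 stands alone at -1.39, and MNT, MGA and MXD4 lie between 0.24 and 0.44.

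To compare levels between genes, normalized counts were divided by the length of all annotated exons of a gene. In p21 OFF cells MYC was highest, at 396 ± 5.29 per kb (SD, n = 3), followed by MXD4 at 192 ± 5.96, MAX at 143 and MNT at 118. MXI1 (101 per kb), MGA (91.0) and MXD3 (73.3) came next, and the libraries of MXI1 overlapped those of MGA and those of MGA overlapped those of MXD3. MXD1 (45.5 per kb) and MYCL1 (1.32) were lowest among the genes with reads. In p21 ON cells MNT, at 159 per kb, lay above MAX, at 144, without overlap, and MXD3, at 27.9, lay below MXD1, at 52.8, without overlap. With the longest transcript as the length, MXD3 lay above MGA in p21 OFF cells, and in p21 ON cells MAX and MNT overlapped and so did MXD1 and MXD3. The authors counted on an annotation that is not given in the sources used here, so these lengths are approximate.

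The make-up of the MXD transcripts differed between the groups, while the summed levels of both groups overlapped. Per kb of exon, MXD3 made up 18.7, 17.7 and 16.9% of the 4 MXD genes in p21 OFF libraries and 6.15, 6.72 and 7.21% in p21 ON libraries. MXD4 made up 46.6 ± 0.853% and then 54.5 ± 2.51% (SD, n = 3 each). The summed level of the 4 genes was 412 ± 10.8 per kb in p21 OFF and 417 ± 11.9 per kb in p21 ON libraries (SD, n = 3 each). The groups overlapped. By the longest transcript instead, the sum was 689 per kb in p21 OFF and 673 in p21 ON libraries (means), again with overlap. The MXD3 share by that length was 22.1% in p21 OFF and 8.63% in p21 ON libraries (means). Within libraries the log2 ratio of MXD3 to MXD4 went from -1.92 ± 0.05 to -3.55 ± 0.09 and that to MXD1 from 0.26 ± 0.13 to -1.33 ± 0.18 (SD, n = 3 each), without overlap in either case.

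**Figure D3:**
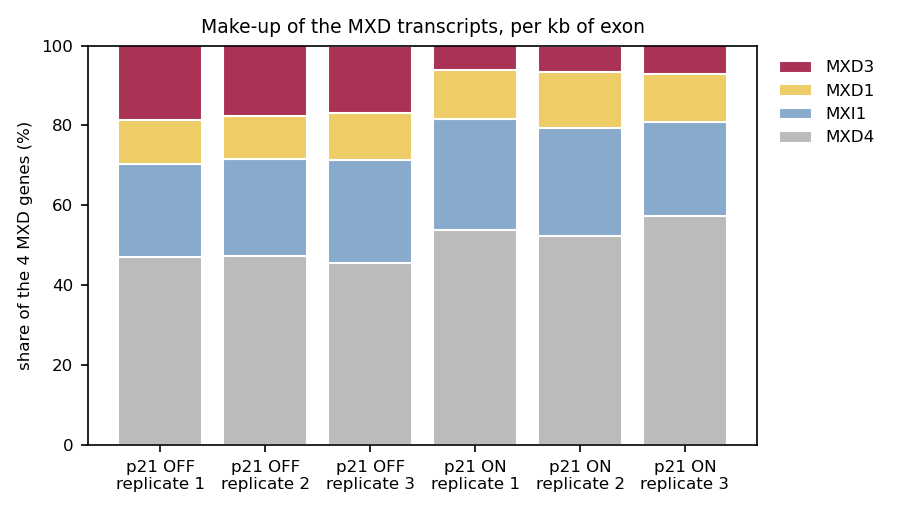
Share (vertical axis, percent) of each MXD gene in the summed normalized counts per kb of exon of MXD1, MXI1, MXD3 and MXD4, by library. The MXD3 share is 16.9 to 18.7% in p21 OFF and 6.15 to 7.21% in p21 ON libraries.

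The level of MYC relative to its antagonists was lower with p21 ON. MYC per kb divided by the summed level per kb of the 6 antagonists was 0.640, 0.635 and 0.637 in p21 OFF libraries and 0.527, 0.556 and 0.538 in p21 ON libraries. MNT per kb was 0.298 ± 0.0198 of MYC in p21 OFF and 0.430 ± 0.0195 in p21 ON libraries (SD, n = 3 each). With the longest transcript as the length, the first ratio was 0.635 in p21 OFF and 0.550 in p21 ON cells (means). These ratios are descriptions of transcript levels and were not tested.

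The genes whose pattern over the 6 libraries lay closest to MXD3, among 11397 genes with a mean of at least 50, were CENPW, C15orf23 (now KNSTRN) and SHCBP1. The measure was the root mean square difference of centred log2 values, which was 0.07 for CENPW, 0.07 for C15orf23 and 0.08 for SHCBP1. These genes had log2 fold changes of -1.46, -1.46 and -1.45. Closest to MNT were PLEKHA7 at a difference of 0.02, ADCY6 at 0.03 and MAP2 at 0.04, with log2 fold changes of 0.41, 0.43 and 0.45.

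**Figure D4:**
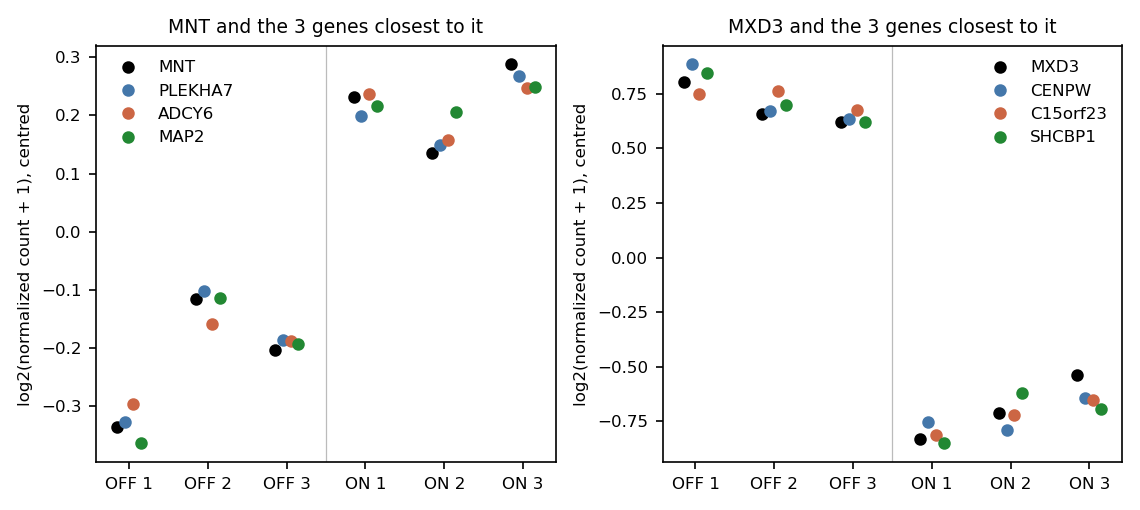
Centred log2(normalized count + 1) by library for MNT (left) and MXD3 (right), in black, with the 3 genes that lie closest to each. The closest gene to MNT, PLEKHA7, differs from it by 0.02 and the closest to MXD3, CENPW, by 0.07 (root mean square).

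In the MLX branch, MLX pairs with the glucose-sensing factors MLXIP (MondoA) and MLXIPL (ChREBP) and also with MNT, MXD1 and MXD4. None of the 4 tested genes of the branch was called, against 10.5% of all genes called higher and 12.7% lower. MLX differed by a log2 fold change of 0.05 (adjusted p = 0.619), MLXIP of 0.08 (adjusted p = 0.544), and the MLXIP target genes TXNIP of 0.12 (adjusted p = 0.196) and ARRDC4 of 0.02 (adjusted p = 0.935), all from limma. At an unadjusted p under 0.05 none was past it either, and neither edgeR nor DESeq2 called any. With the length trend taken out, 1 of the 4 was called higher. MLXIPL was too low to be tested, with 5.73 ± 0.633 normalized counts in p21 OFF and 12.6 ± 3.59 in p21 ON cells (SD, n = 3 each).

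Of the 8 tested corepressor genes recruited by MXD and MNT proteins, 2 were called lower and none higher, against 12.7% and 10.5% of all genes, with a median log2 fold change of 0.02. The count of lower calls was 1 without p21 ON replicate 1, without p21 ON replicate 2 and with scaling by total reads alone. SAP30, a subunit of the SIN3 complex, fell by 0.44 (adjusted p = 0.00638), and SAP18, another subunit, by 0.22 (adjusted p = 0.0186), both from limma. Of the 13 genes of the PRC1.6 complex around MGA, CBX3, a heterochromatin protein gene, was the only call, lower by 0.25 on the log2 scale (-0.25, limma adjusted p = 0.0176), and it was lost without p21 ON replicate 1 or p21 ON replicate 3.

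Among 16 genes of MYC cofactors, 5 were called lower and 2 higher, against 12.7% and 10.5% of all genes, with a median log2 fold change of 0.0019. ACTL6A fell by 0.39 (adjusted p = 0.000173), RUVBL2 by 0.38 (adjusted p = 0.000265) and SMARCB1 by 0.29 (adjusted p = 0.00313), all chromatin remodelling subunits. EP400 (0.30, adjusted p = 0.0297) and TRRAP (0.30, adjusted p = 0.0232), subunits of chromatin complexes as well, were the higher calls. For TRRAP the p21 OFF and p21 ON libraries overlapped. The list had 0 higher calls without p21 ON replicate 1, without p21 ON replicate 3 and with the length trend taken out. These p-values are from limma.

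Among regulators of MYC protein stability, KIAA1524 and AURKA fell the most. KIAA1524, an older symbol of CIP2A, which protects MYC from PP2A, stood at 871 ± 9.04 normalized counts in p21 OFF and 341 ± 7.70 in p21 ON cells (SD, n = 3 each), or a log2 difference of -1.35 (limma adjusted p = 1.29e-10). AURKA, a mitotic kinase that binds and stabilizes MYC family proteins, fell from 1906 ± 87.1 to 765 ± 14.5 (SD, n = 3 each), by 1.32 on the log2 scale (limma adjusted p = 5.57e-11). PPP2R5A, a PP2A subunit gene, fell by 0.25 (adjusted p = 0.0427). USP37, a deubiquitinase, rose by 0.45 (adjusted p = 3.10e-05) and HUWE1, a ubiquitin ligase, by 0.32 (limma adjusted p = 0.0158). For HUWE1 the p21 OFF and p21 ON libraries overlapped. With 3 lower and 2 higher of 13 genes, against 12.7% and 10.5% of all genes, the remaining 8 were not called, and the list median was -0.03. The count of higher calls was 1 without p21 ON replicate 1 and 1 without p21 ON replicate 3. Lower calls numbered 2 with DESeq2, with scaling by total reads alone, with no filter and with the replicate block. They also numbered 2 without any 1 library other than p21 OFF replicate 1.

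Genes known as growth targets of MYC, most of them for ribosome production and translation, included many falls. Of 55 tested genes, 27 were called lower, or 49.1%, against 12.7% of all genes, and 1 was called higher. The median log2 fold change was -0.20 with an interquartile range from -0.30 to -0.09, against 0.0056 for all genes. The list was chosen with earlier results of these data known, and no set test was run. The number called lower was 27 without p21 OFF replicate 1, 28 with the length trend taken out, 22 with scaling by total reads alone, and 17 without p21 ON replicate 1, a fit in which 887 of all genes were called lower, against 1681.

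The largest fall in this list was that of HSPE1, a mitochondrial chaperonin gene, with 143 ± 27.4 normalized counts before and 77.6 ± 17.3 after induction (SD, n = 3 each), or a log2 difference of -0.88 (limma adjusted p = 0.000965). MRTO4, a ribosome assembly factor gene, fell by 0.57 (adjusted p = 5.66e-06) and EIF4E, which encodes the mRNA cap-binding protein, by 0.57 (limma adjusted p = 0.000651). HSPE1 and EIF4E have near-identical processed copies in the genome, so their counts are uncertain. CAD, the first enzyme of pyrimidine synthesis, was the gene called higher, from 4482 ± 358 to 5330.4 ± 346 (SD, n = 3 each), or a log2 difference of 0.25 (limma adjusted p = 0.0134), and it was not called without p21 ON replicate 1 or p21 ON replicate 3.

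Cell cycle genes known as MYC targets split in both directions. Of 11 tested, 6 were called higher and 3 lower, against 10.5% and 12.7% of all genes, with a median log2 fold change of 0.22. CCND1, a D-type cyclin gene, rose by 0.74 (adjusted p = 0.000246), CCNE1, a cyclin E gene, by 0.73 (adjusted p = 1.35e-05), and UNG, a DNA repair glycosylase gene, by 0.33 (adjusted p = 0.00207). PLK4 (-1.46, adjusted p = 7.36e-11) and PLK1 (-1.44, adjusted p = 2.07e-11), kinases of the centriole cycle and of mitosis, were lower, as was the phosphatase gene CDC25A (-0.41, adjusted p = 0.00117). CCND2 was listed at 0 and TERT, the telomerase catalytic subunit gene, had 1 read in a single library. All of these p-values are from limma.

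Of 9 tested genes known to be repressed by MYC, 2 were called lower, none was called higher and 7 were not called, against 12.7% lower and 10.5% higher over all genes. CDKN1B, which encodes the CDK inhibitor p27, differed by a log2 fold change of -0.25 (adjusted p = 0.00814) and KLF6, a zinc finger factor gene, of -0.23 (adjusted p = 0.0394), both from limma. The list had 1 lower call with DESeq2, with scaling by total reads alone, with the replicate block and without any 1 library other than p21 OFF replicate 1, and 3 without that library. The list median was -0.05.

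**Figure D5:**
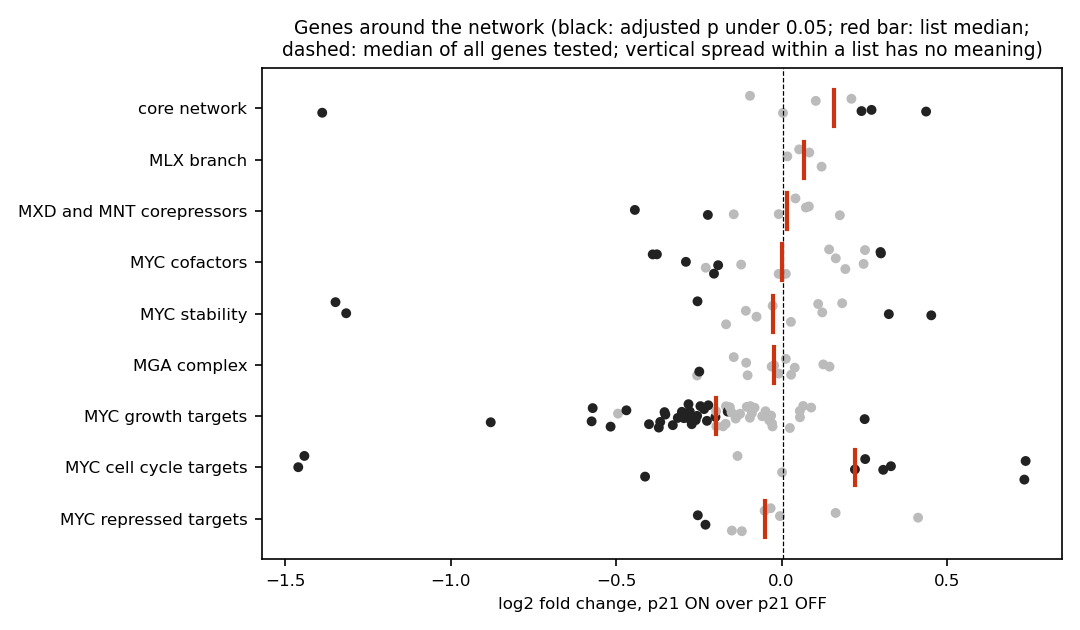
Log2 fold change (horizontal axis) of each tested gene in the network and in the lists around it, with black for an adjusted p under 0.05, red bars for list medians and a dashed line for the median of all genes tested. The growth targets centre at -0.20, while the other lists have medians between -0.05 and 0.22.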

How the data were processed

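RNA from 6 libraries of SaOS-2 cells, 3 p21 OFF and 3 p21 ON, was analysed. Libraries were made by the authors with a strand-marking mRNA kit and sequenced single-end in 1 lane. STAR placed the reads on hg19, HTSeq counted them by gene name, and DESeq2 normalized the counts. Versions, the annotation and the strand setting are not given in the sources used here. The deposited values are normalized counts, a signal of 0 or above. Dividing by the smallest step of a library gave whole reads, within 0.01 read, for 100% of values. Depth was 12795490 to 21975045 reads on genes.

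Differences were tested with limma 3.58.1 (lmFit, eBayes with a trend) in R 4.3.3 on log2(normalized count + 1), without covariates, for the 13255 genes whose mean reached 10, with p-values adjusted over all of them by Benjamini-Hochberg and a threshold of 0.05. This scale understates the fold changes of weak genes. Alternatives were edgeR 4.0.16 and DESeq2 1.42.0 on recovered reads, scaling by total reads alone, pseudocounts of 0.1 and 10, no filter, at least 10 reads in every library, a replicate block, each library left out, and, added after seeing the data, a length trend taken out. The scripts were tested on simulated data.

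Positions, lengths and promoters are from the GENCODE annotation mapped to GRCh37, with 20957 rows matched. Sequences were read from the GRCh37 genome, and the GRCh38 promoter table was not used. The network genes and the lists were chosen with earlier results of these data known. Named were all network genes and MLX branch genes, CDKN1A, the 3 largest called changes in each direction of every other list, the 3 genes closest to the network genes of largest rise and fall, and overlapping genes. Some items are not reported here.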

Additional observations from a re-analysis of the deposited data

How the results depend on the processing

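Of the log2 fold changes of the 8 tested network genes and CDKN1A, MXD3, MNT, CDKN1A, MYC and MXI1 kept their direction and their side of the threshold under every alternative run. MXD1 was called when libraries were scaled by total reads alone (0.25). MGA was not called with the length trend taken out (0.16), and with each library left out it ranged from 0.16 to 0.33. MXD4 ranged from 0.18 to 0.28, and was not called without p21 ON replicate 3. MAX, not called in any fit, was at -0.0087 with the length trend taken out and ranged from -0.0191 to 0.0320 with each library left out. The number of network genes called higher, 3, became 4 with scaling by total reads alone. With each library left out it ranged from 1 to 3, the 1 without p21 ON replicate 3. In every fit 1 network gene was called lower. The cause of these changes was not tested.

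The replicate numbers are shared by both groups, but deviations of same-numbered libraries correlated at -0.06, -0.02 and -0.05 across genes. No shared deviation by number was thus seen. This cannot show whether same-numbered libraries were handled together. With the number as a block, 3 network genes were called higher and 1 lower, and over all genes 1407 were higher and 1513 lower, against 1393 and 1681. In this balanced design the block cannot change a log2 fold change, such as the -1.39 of MXD3, but only its p-value.

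Over all genes, 695 were called higher and 887 lower without p21 ON replicate 1, and 739 and 1077 without p21 ON replicate 3. Some list counts moved by over 1.5 times. Cofactors called higher went from 2 to 4 under total-read scaling and under the block, to 0 with the length trend taken out, and ranged from 0 to 5 with a library left out, while those called lower went from 5 to 3 under total-read scaling and the block and ranged from 3 to 6. Corepressors went from 0 higher and 2 lower to 1 and 1 under total-read scaling, and those lower ranged from 1 to 2. The PRC1.6 genes called lower, 1, became 2 with the length trend taken out and ranged from 0 to 1. Repressed targets called lower, 2, became 1 with DESeq2, total-read scaling and the block and ranged from 1 to 3, and those called higher, 0, became 1 under total-read scaling, with the length trend taken out and without p21 OFF replicate 1. In the MLX branch 1 gene was called higher with the length trend taken out, against 0. Stability genes called higher, 2, ranged from 1 to 3, growth targets called higher, 1, from 0 to 1, and growth targets called lower, 27, from 17 to 27. Depth limits MYCL1, with 6 to 14 reads in a library.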
